A study of Homo sapiens with 4 samples.

Results

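Messenger RNA of the constitutive proteasome was examined in BJ-TE cells, which descend from the human foreskin fibroblast line BJ, on 4 Affymetrix arrays. The members are 38 genes listed by symbol, and a probe set was taken when the array's annotation gave it only 1 symbol, that of a member. This yielded 55 of the 22277 probe sets, for 33 of the 38 genes among 11963 named genes. PSMC5, PSMD7 and PSMD13 had no probe set under these symbols, and for PSMA6 and PSME2 each probe set was annotated to another gene as well, so these 5 are not analysed here. All 33 remaining genes passed the filter on brightness, a mean of at least 6.94 on the log2(intensity + 11.6) scale.

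The proteasome degrades proteins that carry ubiquitin chains. Its barrel-shaped 20S core is built of alpha subunits, which form the outer rings and gate the entry pore, and of beta subunits, which form the inner rings and hold the proteolytic sites. The 19S cap binds the core at its ends: a base with ATPases unfolds the substrate, and a lid removes the ubiquitin chain. Other activators can take the place of the cap, among them the complex of PSME1 and PSME2, which is inducible by interferon gamma and is known for its part in making peptides for MHC class I. In mammalian cells many subunit genes are raised together by the transcription factor NFE2L1 when proteasome activity is blocked.

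The cells had been treated with 1 of 2 short hairpin RNAs, p73 shRNA, directed at the p53-family transcription factor p73, or the control named ns shRNA, and were harvested at 40% or at 100% confluence. Each of the 4 combinations was measured on 1 array, and the labels name no clone, passage or second hairpin. The series title concerns inhibition of malignant transformation by p73. All groups are of the same line, so no normal or untransfected cells enter the comparisons. Values are intensities with a common trimmed mean of 500.1 to 500.2 per array, and every log2 ratio below is on the log2(intensity + 11.6) scale. Arrays of 40% confluent cells had median intensities of 106 (ns) and 105 (p73 shRNA), and those of confluent cells 122 and 120. All 12 fibroblast markers of a fixed list passed the brightness filter, against 1 of 7 epithelial markers (KRT18), 2 of 5 of smooth muscle and pericytes (ACTA2 and CNN1), 0 of 4 endothelial and 0 of 4 blood markers. The only named probe set of TP73, the hairpin's target, lay between the 2.18th and 3.84th percentile of its arrays and does not check which arrays carried the p73 hairpin. No group has a replicate. Both comparisons come from an additive limma model of confluence and shRNA over the 4 arrays. Its only residual is the difference of a gene's shRNA ratio between 40% and 100% confluence. In the main fit a p-value rests on the average size of this residual over genes of like brightness, not on the gene's own spread. It does not include a separately measured spread between cultures.

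Proteasome genes were mostly lower in confluent cells than in cells at 40% confluence, with either hairpin. Of the 33 measured genes, 17 fell, 1 rose and 15 did not pass the test (limma, Benjamini-Hochberg adjusted p below 0.05). Among all 6759 genes tested, 16.1% fell and 20.4% rose. The median log2 ratio of the members was -0.30 with ns shRNA, -0.39 with p73 shRNA and -0.36 by gene average, against a median of 0.01 over all genes. Most of these changes were small: of the members only PSME3 changed at least 2-fold by its average ratio. The ratio was below 0 with both hairpins for 29 of the 33, against 37% of all genes. On 28 members both arrays of confluent cells lay below both arrays at 40%, a pattern found in 30.8% of all genes. Since each array is scaled to the same mean, these values are shares of the signal, and in RNA of whole cultures fewer expressing cells and less RNA per cell cannot be told apart.

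**Figure D1:**
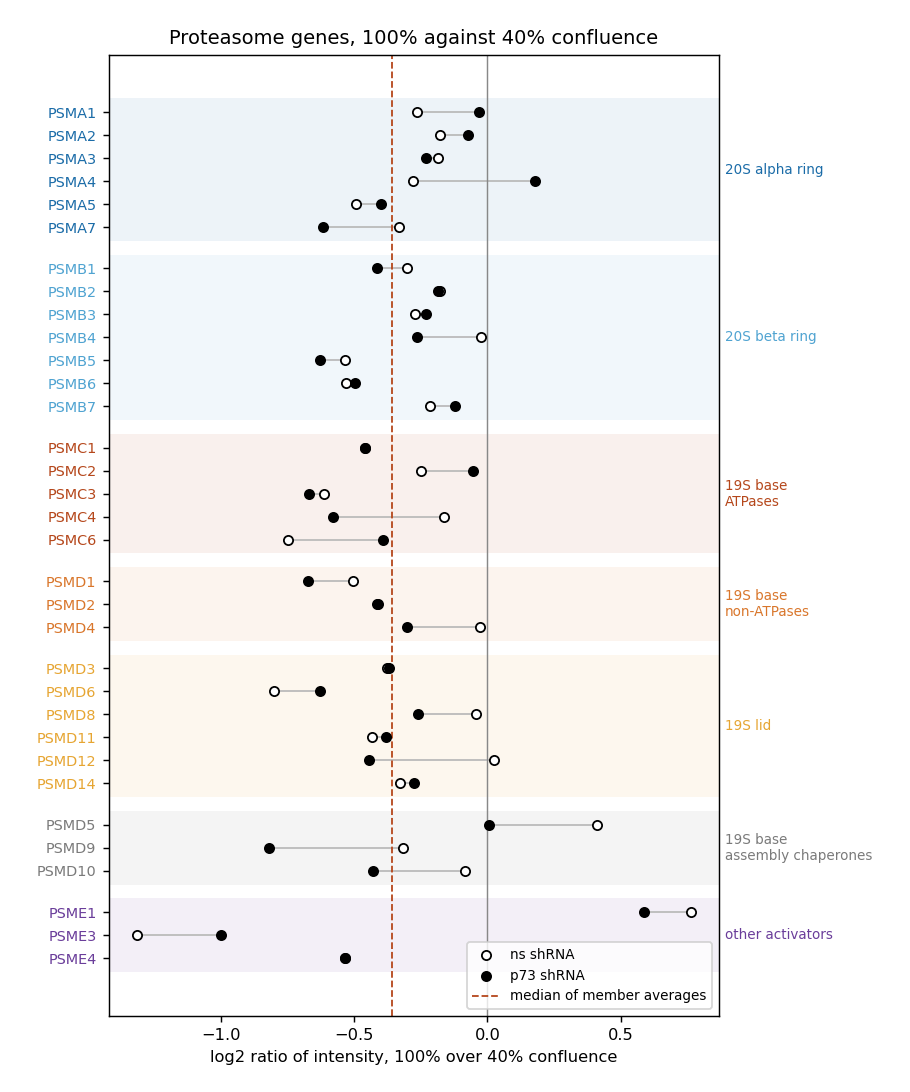
Log2 ratio of intensity at 100% over 40% confluence for each measured proteasome gene, in rows grouped by sub-complex, with ns shRNA (open circles) and p73 shRNA (filled circles), 1 array per condition. Most pairs lie to the left of 0 around the dashed median of -0.36, whereas PSME1 lies to the right with both hairpins and PSME3 lies farthest left.

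In the alpha ring of the core, 2 of 6 measured genes fell, against 16.1% of all genes tested. PSMA5 had intensities of 3314 (ns) and 3334 (p73 shRNA) at 40% and of 2354 and 2524 at 100%, so both confluent arrays were lower. Its average log2 ratio was -0.45 (SE 0.14, limma adjusted p 0.00796). PSMA7 went from 5878 and 7515 to 4664 and 4898 (average -0.47, SE 0.14, limma adjusted p 0.00291). The other alpha subunits did not pass: PSMA1, PSMA2 and PSMA3 averaged -0.15, -0.12 and -0.21. PSMA4 was the alpha subunit whose ratios had opposite signs, -0.28 with ns and 0.18 with p73 shRNA.

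The beta ring holds the 3 catalytic subunits, of which PSMB5 and PSMB6 fell. PSMB5, which carries the chymotrypsin-like activity, had intensities of 3969 and 5140 at 40% and of 2734 and 3324 at 100% (ns first, then p73 shRNA). It fell with an average log2 ratio of -0.58 (SE 0.14, limma adjusted p 0.00028). PSMB6, with the caspase-like activity, went from 3970 and 4166 to 2746 and 2946 and fell by a similar ratio, -0.51 (SE 0.14, limma adjusted p 0.00164). PSMB7, with the trypsin-like activity, was at 7924 and 8014 at 40% and at 6819 and 7357 at 100%. Its confluent arrays were also the lower ones, but its ratio of -0.17 (limma adjusted p 0.343) did not pass; whether it differs from those of PSMB5 and PSMB6 was not tested. Of the structural beta subunits, PSMB1 fell (average -0.36, limma adjusted p 0.0274), while PSMB2, PSMB3 and PSMB4 averaged -0.18, -0.25 and -0.14 and did not pass. On all 7 beta subunits both confluent arrays lay below both arrays at 40%, as they did in 30.8% of all genes.

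In the 19S base, 4 of the 5 measured ATPases fell, against 16.1% of all genes tested. PSMC3 had intensities of 3709 (ns) and 4279 (p73 shRNA) at 40% and of 2422 and 2689 at 100%, which gives ratios of -0.61 and -0.67 (average -0.64, SE 0.14, limma adjusted p 6.27e-05). PSMC6 averaged -0.57 (SE 0.15, limma adjusted p 0.000592) and PSMC1 -0.46, with PSMC1 giving -0.46 for either hairpin. PSMC4 passed narrowly, with -0.16 (ns) and -0.58 (p73 shRNA) and a limma adjusted p of 0.0484. PSMC2, the fifth, averaged -0.15. Of the non-ATPase scaffolds of the base, PSMD1 fell from 3063 and 3872 to 2154 and 2427 (average -0.59, SE 0.14, limma adjusted p 0.000319), and PSMD2 gave -0.41 with each hairpin. The ubiquitin receptor PSMD4 did not pass, at -0.03 and -0.30.

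In the lid, 3 of 6 measured genes fell, against 16.1% of all genes tested. PSMD6, a structural subunit, had intensities of 4972 and 4616 at 40% and of 2846 and 2984 at 100%. Its ratio was -0.80 (ns) and -0.63 (p73 shRNA), with an average of -0.71, the lowest average of the core and cap genes (SE 0.14, limma adjusted p 4.83e-06). PSMD3 and PSMD11, also structural, averaged -0.37 and -0.41. PSMD14, the deubiquitinase that releases the ubiquitin chain, gave -0.33 and -0.28 and did not pass (average -0.30, SE 0.14, limma adjusted p 0.0759). PSMD8 and PSMD12 did not pass either, at -0.15 and -0.21. Among the chaperones that assemble the base, PSMD9 fell, with -0.32 and -0.82 (average -0.57, SE 0.16, limma adjusted p 0.00155). PSMD10 averaged -0.26 and did not pass. PSMD5 averaged 0.21 (limma adjusted p 0.334) and was, with PSME1, one of 2 members with both confluent arrays above both arrays at 40%, against 33.7% of all genes. The PSMD5 ratio was 0.41 with ns but 0.0068 with p73 shRNA, where the intensity was 963 at 40% and 967 at 100%.

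Of the activators that can replace the cap, 2 fell and 1 rose, against 16.1% and 20.4% of all genes tested. PSME3, which had the largest average change of the members and forms the nuclear PA28 gamma ring, had intensities of 2498 (ns) and 2809 (p73 shRNA) at 40% and of 997 and 1400 at 100%. Its log2 ratios were -1.32 and -0.998, with an average of -1.16 (SE 0.15, limma adjusted p 7.32e-13). PSME4, the activator PA200, gave -0.53 with either hairpin (SE 0.16, limma adjusted p 0.0043). PSME1, the PA28 alpha subunit, moved the other way. Its intensity was 1605 (ns) and 2401 (p73 shRNA) at 40% and 2736 and 3616 at 100%, so both confluent arrays were the higher ones. It was the member that rose, by 0.76 and 0.59 (average 0.68, SE 0.15, limma adjusted p 3.26e-05). Against all genes tested, PSME1 stood at the 88.5th percentile of the confluence ratio and PSME3 at the 1.23rd.

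**Figure D2:**
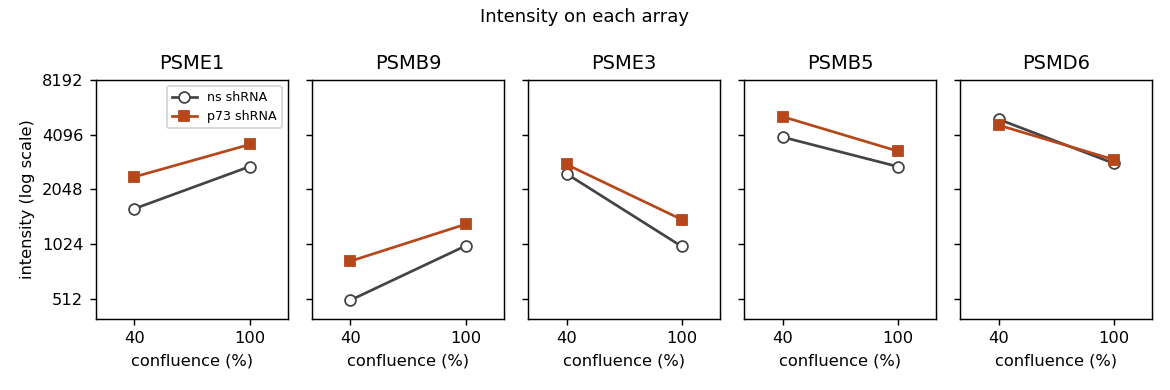
Intensity on each of the 4 arrays (log scale) against confluence in percent for PSME1, PSMB9, PSME3, PSMB5 and PSMD6, with ns shRNA as open circles and p73 shRNA as filled squares, 1 array per point. PSME1 and the immunoproteasome subunit PSMB9 are higher at 100% confluence with both hairpins, and PSME3, PSMB5 and PSMD6 are lower.

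The 250 bases before the start of each gene were searched in RefSeq's promoter sequences (GRCh38.p14), in which 33 of the 38 member symbols have an entry. Both strands were searched for TGACNNNGC, the core of the antioxidant response element that NFE2L1 and NFE2L2 bind, and for CCAAT, the box of NF-Y. TGACNNNGC stood in 10 of the 33 members (30.3%) and in 13.2% of all 27305 genes of the table. CCAAT stood in 16 members (48.5%) and in 37% of all genes. Members measured here with a TGACNNNGC match had a median confluence ratio of -0.23 (8 genes), and those without one had -0.39 (20 genes). With CCAAT the medians were -0.28 (14 genes) and -0.39 (14 genes). A match is a stretch of letters, not a shown binding site. The 200 bases before the start are given for the 3 members with TGACNNNGC and the largest confluence ratios, which include the one that rose, and for the 2 largest without it. Capitals mark TGACNNNGC in PSME1, PSMD9 and PSME4, and CCAAT, read on the other strand as ATTGG, in PSME3 and PSMD6.
PSME1, chr14:24135994-24136193, plus strand: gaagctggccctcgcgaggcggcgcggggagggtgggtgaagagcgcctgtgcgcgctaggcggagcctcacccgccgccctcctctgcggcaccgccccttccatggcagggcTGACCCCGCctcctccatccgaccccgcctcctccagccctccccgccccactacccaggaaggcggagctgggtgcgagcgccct
PSMD9, chr12:121888590-121888789, plus strand: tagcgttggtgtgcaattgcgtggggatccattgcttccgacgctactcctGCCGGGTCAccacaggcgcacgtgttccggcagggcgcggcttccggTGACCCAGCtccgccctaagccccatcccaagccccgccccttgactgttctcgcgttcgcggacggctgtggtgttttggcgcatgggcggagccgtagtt
PSME4, chr2:53970994-53971193, minus strand: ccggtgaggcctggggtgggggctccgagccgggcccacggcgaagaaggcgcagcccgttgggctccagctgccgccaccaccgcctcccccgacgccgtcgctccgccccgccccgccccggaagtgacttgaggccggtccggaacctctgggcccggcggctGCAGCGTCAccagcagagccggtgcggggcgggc
PSME3, chr17:42833197-42833396, plus strand: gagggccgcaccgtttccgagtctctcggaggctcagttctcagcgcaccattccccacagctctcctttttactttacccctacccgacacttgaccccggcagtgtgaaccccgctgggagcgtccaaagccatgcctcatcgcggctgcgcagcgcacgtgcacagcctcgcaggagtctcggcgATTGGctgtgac
PSMD6, chr3:64023495-64023694, minus strand: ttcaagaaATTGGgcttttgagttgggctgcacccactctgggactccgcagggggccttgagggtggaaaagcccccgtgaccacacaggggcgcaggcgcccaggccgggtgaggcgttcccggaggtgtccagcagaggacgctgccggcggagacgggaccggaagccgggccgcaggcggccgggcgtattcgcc
PSME1, which rose, and PSMD9 and PSME4, which fell, all have the TGACNNNGC letters: in PSME4 on the opposite strand, in PSMD9 once on each strand, and in PSME1 on the strand of the gene. PSMD6 and PSME3, which had the lowest average confluence ratios, have none in the searched bases.

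Core and cap were then compared with each other. Core genes were brighter on every array. At 40% their mean log2 level was 12.45 against 11.74 for the cap (ns) and 12.52 against 11.87 (p73 shRNA). At 100% these levels were 12.16 against 11.38 and 12.25 against 11.45. The part of brightness in the ratios was not tested. Of the core genes 5 of 13 fell at confluence and of the cap genes 9 of 14, against 16.1% of all genes tested. Without the intensity trend 2 core genes and 4 cap genes fell, against 12.3% of all genes. The median log2 ratio of the core was -0.27 with ns and -0.23 with p73 shRNA, and that of the cap was -0.40 with each. By gene average the medians were -0.21 and -0.39, a difference of 0.18. After quantile normalization they were -0.093 and -0.35, a difference of 0.26. Without that normalization the means were -0.28 (SD 0.17 over 13 genes) and -0.39 (SD 0.19 over 14 genes), a difference of 0.11. The ranges overlapped over most of their length, from -0.58 to -0.05 in the core and from -0.71 to -0.15 in the cap. The difference of the means was 0.08 with ns and 0.15 with p73 shRNA, so it had the same sign with both. An exact two-sided permutation test of this difference, 2 arrays against 2, gave p = 0.333. That is the smallest p that this design allows, so the test could not show a difference whatever the values were.

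**Figure D3:**
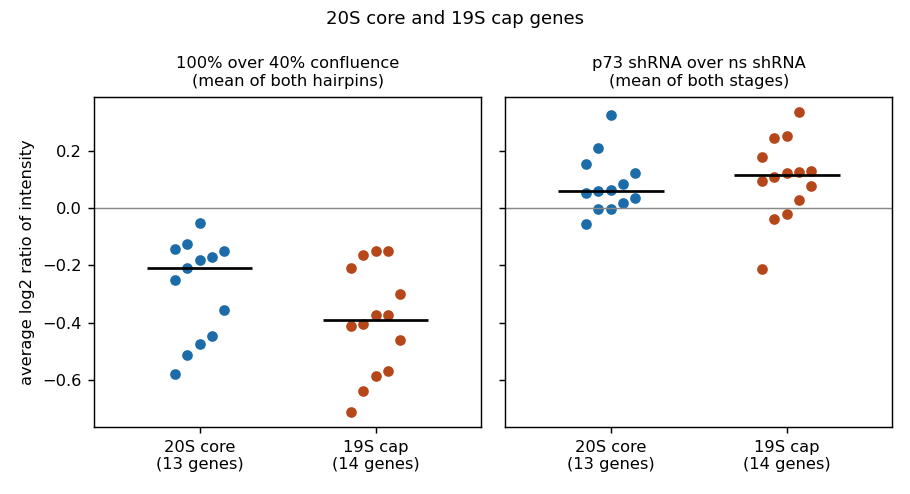
Average log2 ratio of intensity of each 20S core gene (13 points) and 19S cap gene (14 points), with the median as a black bar. For 100% over 40% confluence (left) the medians are -0.21 and -0.39 with overlapping points, and for p73 shRNA over ns shRNA (right) they are 0.06 and 0.12.

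Several members had more than 1 probe set, which gives a second reading of the same RNA. The members had 51 probe sets that passed the filter, and 43 of these were lower at confluence with both hairpins and 3 were higher. The share among all probe sets is not given here, and probe sets of the same gene are not independent. PSME3 had 4 probe sets above the filter, with averages from -1.39 to -0.80. Of the 13 genes with several, 10 gave the same sign on every probe set, and PSMD11 and PSME4 gave both signs over a range of more than 0.5. PSMC2, the third without a single sign, ranged from -0.15 to 0.07. A further 4 probe sets, of PSMB1, PSMD4, PSMD5 and PSMD9, lay below the filter. The dimmer PSMD11 probe set measured 167 and 199 at 40% and 229 and 246 at 100% (ns, then p73 shRNA, as intensity) and averaged 0.36, against -0.41 for the brighter one. PSME4's other probe sets averaged -0.80 and 0.12. When the probe sets of each gene were averaged, the calls of PSMB1, PSMC4, PSMD9, PSMD11 and PSME4 were lost and PSMB2 was called lower. These averages took in the probe sets below the filter. For PSMB1 the 2 above it gave -0.36 and -0.32 and the one below it -0.07. For PSMD9 the one below the filter gave 0.32, against -0.57 for the brighter one. PSMC4 has 1 probe set, so its ratio was unchanged, and its limma adjusted p moved to 0.0521.

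The number of calls at confluence depended on the model of the spread and on the scaling, while the medians of core and cap stayed below 0 under all 8 alternatives of scaling, pseudocount, filter and probe set choice. Without the intensity trend 9 members fell: PSMB5, PSMB6, PSMC3, PSMC6, PSMD1, PSMD6, PSMD9, PSME3 and PSME4, while 12.3% of all genes did. The limma adjusted p of each of these 9 was larger in that fit. It was 0.000143 for PSME3, 0.00554 for PSMD6 and 0.0107 for PSMC3. PSME1 rose there too (limma adjusted p 0.00786), as did 18.3% of all genes. The 99th percentile of intensity was 11420 (ns) and 13157 (p73 shRNA) at 40% and lower, at 10196 and 10869, at 100%, and the members ranked between the 63.3rd and 97.7th percentile of mean level. Quantile normalization, which makes the distributions equal, gave a member median of -0.27, 22 members below 0 with both hairpins and 16 of the 18 calls, without PSMB1 and PSMC4. Over all genes the median was then -0.014, with 1183 higher and 1104 lower calls. The share of all genes below 0 with both hairpins is not given for that scaling. Centring each array on its median moved the median of all genes to -0.17 and that of the members to -0.54, and 27 members were called lower; over all genes the split of higher to lower calls moved from 1382 and 1089 to 844 and 1887. The 3' to 5' intensity ratio of beta-actin, a sign of RNA integrity, was 1.24 and 1.09 at 40% and 1.47 and 1.38 at 100%, and its part in the result was not tested.

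With p73 shRNA the proteasome genes differed little from the control. Of the 33 members 1 rose and none fell in the additive limma model, against 1.14% and 1.58% of all genes. At an unadjusted p below 0.05, 4 members were higher (PSME1, PSMB5, PSMD12 and PSME3) and 0 lower, against 6.07% and 7.58% of all genes. The one was PSME1, with ratios of 0.58 (40%) and 0.40 (100%), an average of 0.49 and an SE of 0.15 (limma adjusted p 0.0351). Its ns and p73 shRNA arrays overlapped across stages, since the ns array at 100% (2736) lay above the p73 shRNA array at 40% (2401). The call rests on the pooled spread: quantile normalization moved the limma adjusted p to 0.061, and a fit with no trend to 0.257, in which no member passed, against 0.385% of all genes called higher and 0.71% called lower. At an unadjusted p below 0.05 that fit had 1 member, PSME1, and 11.9% of all genes. The members' median was 0.08 at 40% and 0.10 at 100%, against -0.0011 over all genes at each stage. Both ratios were above 0 for 21 of 33 members, against 29% of all genes. The highest 99th percentile of intensity was that of p73 shRNA at 40%, and after quantile normalization the members' median of the averages moved from 0.10 to 0.07.

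**Figure D4:**
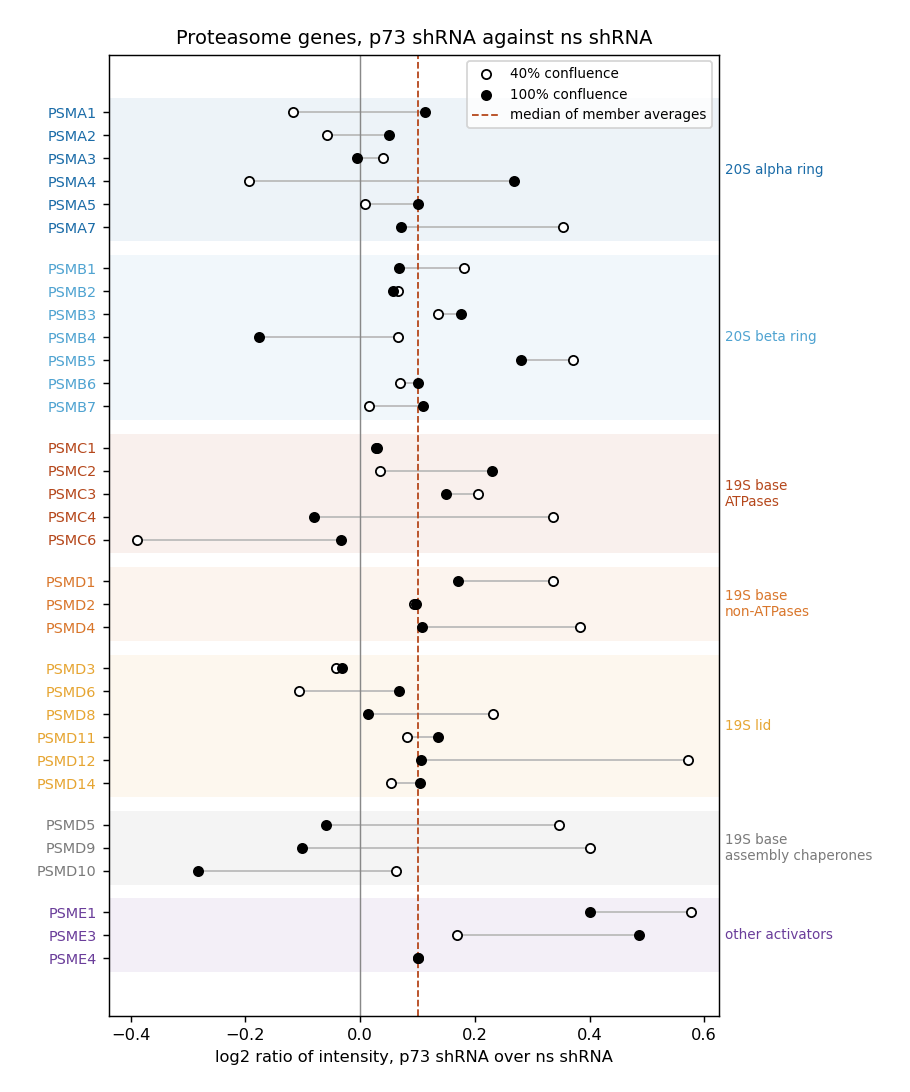
Log2 ratio of intensity with p73 shRNA over ns shRNA for each measured proteasome gene, in rows grouped by sub-complex, at 40% (open circles) and 100% confluence (filled circles), 1 array per condition. The points scatter around the dashed median of 0.10, and PSME1 has the highest average, 0.49.

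After PSME1 the highest averages with p73 shRNA were those of PSMD12 (0.34), PSMB5 and PSME3 (0.33 each), PSMD1 and PSMD4 (0.25 each), PSMA7 (0.21) and PSMC3 (0.18), and none of these passed. A second probe set above the filter averaged -0.11 for PSMA7, 0.29 for PSMD1 and 0.37 for PSMD12. PSMB5 gave 0.37 and 0.28 (limma adjusted p 0.235), with a 95% interval of the average from 0.05 to 0.60 that takes the pooled spread as known. The interval ran from -0.19 to 0.36 for PSMB6, from -0.20 to 0.33 for PSMB7 and from -0.19 to 0.35 for PSMD14, so a change of that size is not shown to be absent. At the low end PSMC6 averaged -0.21, PSMD10 -0.11 and PSMB4 -0.05, and PSMD3, PSMD6, PSMA1, PSMA2 and PSMA3 lay between -0.04 and 0.02. On PSMD4 and PSMD12 both p73 shRNA arrays lay above both ns arrays, which was so for 10.5% of all genes, and on no member were both below (10.9% of all genes). This held on the brightest probe set of each. On PSMD12's other probe set, and on PSMD4's others above the filter (averages 0.03 and 0.13), the arrays overlapped. The core had a median of 0.07 at 40% and 0.10 at 100%, and the cap had 0.09 and 0.10. The mean ratio of the core minus that of the cap was -0.06 at 40% and 0.02 at 100%, so it had no common direction.

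The p73 shRNA ratio of some members was not the same at both stages, a difference that has no test with 1 array per group. PSMD12 was at 1789 (ns) and 2665 (p73 shRNA) at 40% and at 1818 and 1957 at 100%, which gives ratios of 0.57 and 0.11. PSMD9 had 0.40 and -0.10, PSMC4 0.34 and -0.08, and PSMD5 0.35 and -0.06. The opposite order was seen for PSMA4 (-0.19 and 0.27), PSMC6 (-0.39 and -0.03), PSME3 (0.17 and 0.49) and PSMA1 (-0.12 and 0.11). Of the 13 genes with several probe sets above the filter, 7 gave both signs by the average of both stages, and in 2 of these the probe sets lay more than 0.5 apart: those of PSME3 ranged from -0.10 to 0.44 and those of PSME4 from -0.11 to 0.45. No member was at least 1.5-fold in opposite directions at both stages.

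Other genes of the pathway were taken from fixed lists. Of 12 measured assembly and accessory factors, 4 fell at confluence and 1 rose, against 16.1% and 20.4% of all genes tested. ADRM1, a ubiquitin receptor of the cap, fell from 2341 and 2703 to 1351 and 1544 (average -0.80, SE 0.15, limma adjusted p 1.4e-06). SEM1, a small lid subunit, averaged -0.50, the deubiquitinase USP14 -0.41, and POMP, which helps the core mature, -0.36. ECPAS, which binds the proteasome as a scaffold, was called higher (average 0.45, limma adjusted p 0.0194), yet its ratios were -0.04 with ns and 0.94 with p73 shRNA, so the call rests on the latter. None of the 12 passed with p73 shRNA. UBB, a polyubiquitin gene, fell at confluence (average -0.35, limma adjusted p 0.0282), and the E1 enzymes UBA1 and UBA6 did not pass (0.01 and -0.41). The calls of ECPAS, USP14, POMP and UBB were lost without the intensity trend. Of 2 ubiquitin shuttle genes above the filter, RAD23B and UBQLN2, neither passed.

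Of the list of regulators of these genes and of NFE2L1 processing, 0 of 8 passed in either limma comparison, with 1 at an unadjusted p below 0.05 for confluence (44.7% of all genes) and 0 for p73 shRNA (13.6% of all genes). NFE2L1 had intensities of 2159 (ns) and 1804 (p73 shRNA) at 40% and of 2207 and 2008 at 100%, with a confluence ratio of 0.09 (limma adjusted p 0.665) and a p73 shRNA ratio of -0.20 (limma adjusted p 0.627). NFE2L2 averaged 0.06 and -0.22. The NF-Y subunits NFYA, NFYB and NFYC averaged -0.35, -0.30 and -0.23 at confluence. Among the interferon-inducible beta subunits that replace the catalytic ones in the immunoproteasome, PSMB9 rose at confluence (506 and 828 to 1006 and 1321, average 0.82, limma adjusted p 1.11e-05). It also rose with p73 shRNA (0.70 and 0.39, average 0.54, limma adjusted p 0.0454). PSMB8 and PSMB10 passed in neither. Their p73 shRNA ratios were also above 0, at 0.34 and 0.22 for PSMB8 and at 0.26 and 0.45 for PSMB10. On PSMB8 and PSMB10 both p73 shRNA arrays lay above both ns arrays, as in 10.5% of all genes. Those of PSMB9 overlapped, with 828 (p73 shRNA, 40%) below 1006 (ns, 100%). The p73 shRNA call of PSMB9, like that of PSME1, was lost without the intensity trend (limma adjusted p 0.202).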

How the data were processed

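Per the labels' protocols, trizol was used to extract total RNA, and biotin labelling followed Affymetrix's standard procedure. The deposited values are intensities, 1 per probe set and array; which software made them is not stated in the labels used here. From the values, they are linear and the mean of each array after trimming 2% at either end is equal. Of 22277 probe sets, 62 were controls, 19064 had 1 gene symbol in the platform annotation, 1043 had several and 2108 none; symbols were updated by Entrez ID.

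Values were taken as log2(intensity + 11.6); the 20th percentile over all arrays, 11.6, served as pseudocount. Each gene was represented by the brightest of its probe sets, and genes at or above the median of all probe sets were tested. limma 3.58.1 (R 4.3.3) fitted confluence + shRNA over the 4 arrays, with an intensity trend, two-sided, Benjamini-Hochberg adjusted over 6759 genes. The fit of 3 coefficients to 4 arrays leaves 1 residual degree of freedom. The trend made limma's prior degrees of freedom infinite: a gene's error is then the average spread at its brightness. With no trend their number was 15.8. Simulated data with 6759 genes, 200 of them changed, were used to test the fit. Their noise was independent and drawn from the fit's own spread, so the shares below cannot check that spread against these arrays. The real confluence comparison called many more genes, 1382 higher and 1089 lower. For confluence it recovered 49.3% of changes of 1.5-fold, 92.5% of those of 2-fold and 100% at 4-fold, with 6.4% false calls. For p73 shRNA the shares were 46.3%, 91% and 100%, with 4.24% false calls. The number of arrays limits the precision.

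Named are members that passed, the 8 highest and 8 lowest by average ratio, catalytic subunits, PSMD14, PSME1, the 4 with the largest difference between stages in each direction, listed non-members that passed, and PSMB8, PSMB9, PSMB10, POMP and NFE2L1; other genes named complete a group and were picked with their values known. Members and lists were chosen with earlier results of these data known. Alternatives were quantile normalization, median centring, pseudocounts at the 5th or 40th percentile, dropping the filter or raising it to the 70th percentile, averaged probe sets, leaving out _x_at probe sets, no trend, only the factor tested in the model, and a fit on probe sets. Figures were drawn with matplotlib 3.10.9.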

Additional observations from a re-analysis of the deposited data

How the results depend on the processing

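The main fit takes each confluence ratio within a hairpin and each shRNA ratio within a stage; with 1 array per group there is no replicate number to use as a block, and leaving out an array leaves the model no residual degrees of freedom. The number of members that fell at confluence, 17, became 27 with median centring and 11 without the brightness filter. It became 9 without the intensity trend and 11 with only confluence in the model. Over all genes the lower calls, 1089 in the main fit, were 1887, 643, 833 and 578 in these settings. Without the brightness filter all 11963 named genes were tested. With only confluence in the model the call of PSME1 was lost too, leaving 0 members higher. With p73 shRNA the 1 member called higher became 0 after quantile normalization, without the brightness filter, with averaged probe sets, with no trend and with only the shRNA in the model; in the last setting limma called 0 of all genes as well, with 58 at an unadjusted p below 0.05 and 0 of them members. Over all genes the higher calls with p73 shRNA, 77 in the main fit, were 48 after quantile normalization and 1 without the brightness filter. They were 17 with averaged probe sets and 26 with no trend. No alternative called a member lower with p73 shRNA.

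The core median at confluence (-0.21) was -0.093 after quantile normalization, -0.39 with median centring, and -0.25 with averaged probe sets as well as without _x_at probe sets. That of the cap (-0.39) was -0.35, -0.57 and -0.37 in the first 3 of these settings and -0.38 with the pseudocount at the 40th percentile. Core minus cap (0.18) was 0.26 after quantile normalization, 0.12 with averaged probe sets and 0.14 without _x_at probe sets. With p73 shRNA the core median (0.06) was 0.020 and 0.089 after quantile normalization and median centring, that of the cap (0.12) 0.10 and 0.14, and core minus cap (-0.05) was -0.084 after quantile normalization. PSMB7 turned from 0.06 to -0.025 with p73 shRNA after quantile normalization, without passing in either. The causes were not tested. The brightest probe set of each measured member lay above the brightness filter, which is the median level of all probe sets and not a measure of background. The number of arrays limits the precision, and the scaling and the model of the spread changed the calls.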
